A study of Mus musculus with 3 samples.

Results

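The 40 DNA replication and mitosis genes described here were chosen by their known function in the cell cycle, not by a threshold on their values. Earlier results of these data were known at the time. The 40 genes comprise 20 S-phase genes, whose products load the replicative helicase, copy DNA and supply deoxynucleotides, and 20 mitosis genes, whose products drive and check chromosome segregation. Of 24402 gene symbols in the data, all 40 members were found. The samples were spheres enriched for cancer stem cells (CSCsp) from 4T1, a transplantable mammary carcinoma line of Balb/c mice, grown for 7 days in serum-free medium and retained on a 40 µm strainer. The library labelled N came from CSCsp without co-culture, the library labelled P from CSCsp co-cultured with tumor antigen primed splenocytes, and the library labelled R from CSCsp co-cultured with primed splenocytes whose activation had been reinforced with anti-CD3/CD28 beads and IL2. The splenocytes came from female Balb/c mice injected with 4T1 cells in the mammary fat pad at 8 weeks of age and kept for 28 days, and the spheres were separated from them on a strainer before RNA was extracted. Each condition had 1 library, for which the study combined RNA of independent experiments, so the spread between experiments is not known and no test between conditions was possible.

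Cells copy their DNA in S phase and divide it in mitosis, and the genes for these steps are transcribed in successive waves. E2F factors drive the G1/S wave, which includes the MCM helicase, the clamp PCNA and ribonucleotide reductase. Later in G2, the MuvB complex with B-MYB and FOXM1, together with NF-Y, drives cyclin B, the mitotic kinases and the spindle genes. In a tumor line that divides in culture both waves are active in the population, and RNA from bulk spheres averages over cells of every phase. Fewer cells in a phase and less RNA per cell cannot be told apart in such samples.

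Levels are given as FPKM, fragments per kilobase of transcript scaled to the size of the library, summed over the transcripts of a gene, and in the order N, P and R unless stated. The libraries held 17894139, 17887652 and 19178982 fragments as reconstructed from coverage, and 10920, 10928 and 10965 genes reached an FPKM of 1. Of 11 epithelial markers 10 reached an FPKM of 1 in each library, and Krt5 was at 0 in all. Their summed level was 2530, 2230 and 1920 FPKM, with Epcam at 285.1, 242.5 and 245.1 FPKM and Krt8 at 650.9, 553.7 and 466.7 FPKM. Of 15 stem cell markers 8 reached an FPKM of 1 in each library, among them Cd44 and Cd24a, while Sox2 was at 0 and Prom1 and Aldh1a1 stayed below 0.15 FPKM. Summed markers of T cells, B cells, macrophages and monocytes, and neutrophils were lowest in the library labelled P, and pan-leukocyte markers in N. Of 12 pan-leukocyte markers 5, 2 and 6 reached an FPKM of 1, with a summed level of 47.4, 49.0 and 54.4 FPKM. This sum came mainly from Itgb2, highest in P at 26.32, 35.89 and 34.11 FPKM, and Lcp1, level at 12.41, 12.05 and 12.31 FPKM. Ptprc, which defines leukocytes, was at 0.20, 0.00 and 0.31 FPKM. The 16 T cell markers summed to 1.29, 0.952 and 3.41 FPKM, with Cd3e at 0 in N and P and at 0.077 in R and only Gzmb above 1, at 1.58 FPKM in R. The summed level was 1.14, 0.206 and 2.65 FPKM for B cell markers, 72.7, 32.7 and 87.7 for macrophage and monocyte markers, 1160, 558 and 1950 for neutrophil markers, of which Lcn2 made up 1126, 545.1 and 1931, and 40.4, 35.1 and 29.0 for erythroid markers. Among the macrophage and monocyte markers, Lyz2 was highest in N at 28.91, 0.3126 and 6.514 FPKM, while Mpeg1 was highest in R at 0.6974, 0.2274 and 24.46 FPKM. The part of these leukocyte transcripts in the values below was not tested. Values that the study tabulates for N lie nearest the library labelled P for most genes compared, and those for P nearest the library labelled N, so the labels are used as names only, and the direction of every difference between N and P carries this doubt.

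Levels of the S-phase genes in R mostly exceeded those in both other libraries. The mitosis genes in R were, as a group, lower than in P and slightly lower than in N. For R versus N the median log2 ratio, taken on FPKM + 0.1, was 0.51 (1.43-fold) over 19 S-phase genes and -0.086 (0.942-fold) over 20 mitosis genes, beside 0.076 over the 11323 genes that reached 1 FPKM in a library. For R versus P the medians were 0.26 (1.20-fold) and -0.36 (0.780-fold), beside 0.029 over all genes. The median of the mitosis genes thus lay 0.60 below that of the S-phase genes for R versus N and 0.62 below it for R versus P on the log2 scale. For P versus N the order was the other way and the distance small, with medians of 0.17 and 0.26 and a difference of 0.089, and 0.032 over all genes. Summed over members, the S-phase genes reached 305.9, 342.7 and 407.9 FPKM and the mitosis genes 322.9, 371.4 and 299.1 FPKM, so that the mitosis sum divided by the S-phase sum was 1.06, 1.08 and 0.733. Ccne2, at 0.491, 0.602 and 0.627 FPKM, stayed under the minimum of 1 FPKM and is left out of medians and counts.

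**Figure D1:**
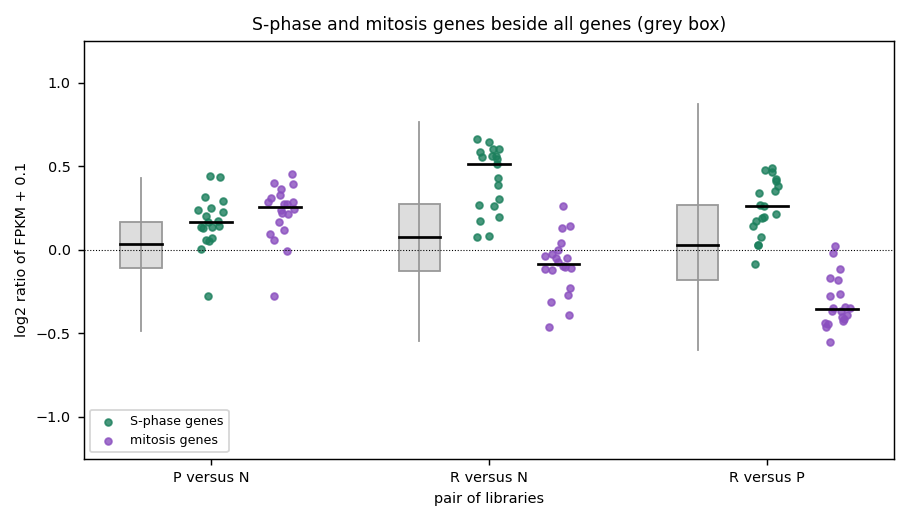
Log2 ratio of FPKM + 0.1 (vertical axis) for the 3 pairs of libraries (horizontal axis), with 1 point per S-phase gene (green, 19 genes) or mitosis gene (purple, 20 genes), black bars for the group medians, and grey boxes and lines for the quartiles and the 5th to 95th percentiles of all 11323 genes that reached 1 FPKM. The groups mingle for P versus N and separate for both ratios with R, where S-phase medians are 0.51 and 0.26 and mitosis medians -0.086 and -0.36.

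The shift was of small size in each gene. Its direction was shared by nearly all S-phase genes in both ratios with R, and by nearly all mitosis genes for R versus P. For R versus N, 19 of 19 S-phase and 4 of 20 mitosis genes had a log2 ratio above 0, beside 6811 of all 11323 genes. For R versus P, 18 of 19 and 1 of 20 did, beside 6104 of 11323. No member differed 2-fold in any pair of libraries, where 3.09% of 11202 genes were higher by that much and 1.88% lower for R versus N, 4.16% and 1.69% for R versus P, and 0.53% and 1.55% for P versus N. At 1.5-fold on FPKM + 0.1, Mcm2, Mcm3, Mcm4 and Cdc6 were higher for R versus N, and no other member passed in any pair. Tyms, with an R versus N ratio of 1.53 without the added 0.1, fell just short once it was added. Of all genes 7.95% were higher and 4.47% lower for R versus N, 8.98% and 5.16% for R versus P, and 2.24% and 3.54% for P versus N. Of the S-phase genes 18 of 19 had their highest level in R, against 46.7% of all 11323 genes, and Cdt1 was the exception. Of the mitosis genes 16 of 20 had their lowest level in R, against 32.6% of all genes, and 17 of 20 their highest in P, against 33.0%. These counts on R do not depend on which of the other libraries is N. For R versus N, 14 S-phase genes lay above every mitosis gene, the highest of which had a log2 ratio of 0.263. For R versus P 18 did, but there the highest mitosis gene, at 0.02, was itself below the median of all genes, 0.029. The share of all genes above these limits was not counted.

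Counting error was small for most members. The 95% interval on the ratio, exact for the fragments counted and covering counting error only, lay above 1 for 16 of 19 S-phase genes and 2 of 20 mitosis genes for R versus N, against 34.2% of all genes. It lay below 1 for no S-phase gene and 6 mitosis genes, against 19.7%. For R versus P it lay above 1 for 11 S-phase genes and no mitosis gene, against 30.7%, and below 1 for no S-phase gene and 16 mitosis genes, against 24.7%. For P versus N it lay above 1 for 10 S-phase and 16 mitosis genes, against 22.2%, and below 1 for Cdk1, against 15.4%. The fragments of Cdk1 were nearly equal, 1076 in N and 1056 in P. Its lower ratio went with their division between transcripts of unlike length, and intervals do not cover error in that division. After the libraries were rescaled by the median ratio of widely expressed genes, the split for R versus N became 15 above and 9 below in place of 18 and 6, with 13 S-phase genes above and 9 mitosis genes below. Over all genes the same rescaling gave 3159 above and 2722 below in place of 3835 and 2206. Intervals do not cover the spread between experiments.

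The promoters of S-phase and mitosis genes held E2F, CHR and CCAAT words in different shares, and the choice of members did not use these sequences. RefSeq windows of 300 bases, from 250 before to 50 after the start on build GRCm38.p6, were at hand for 32 of the 40 genes, in 34 windows, and none was used for Mcm4, Gins2, Ccne2, Ccna2, Foxm1, Aurkb, Kif20a and Tpx2. An E2F word (TTCCCGC or TTCGCGC or TTGGCGC or TTGCCGC on either strand) was in 57.9% of 19 S-phase windows and 20.0% of 15 mitosis windows, beside 17.1% of 10908 windows of genes that reached 1 FPKM and 9.57% of all 32851 windows. A CHR word (TTTGAA or TTCGAA, the core of the cell cycle genes homology region) was in 26.3% and 80.0%, beside 13.3% and 19.2%. CCAAT, the word of NF-Y, was in 57.9% and 93.3%, beside 37.6% and 37.4%, and CHR with CCAAT in 21.1% and 80.0%, beside 5.39% and 7.52%. In a count chosen after the positions were seen, a CHR word within 50 bases of the start was in 1 S-phase and 11 mitosis windows, or 5.26% and 73.3%, beside 3.49% and 5.31%. E2F words can overlap each other and CCAAT, the latter in 2 member windows, and a match describes letters in a window and not a bound site.

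The stretches before the start of 3 S-phase and 3 mitosis genes are printed 5′ to 3′ on the gene's strand to show these words, and were chosen after values were seen. Capitals mark E2F, CHR and CCAAT words on either strand, with neighbouring words run together. Mcm5 is at chr8:75109339-75109508 on the plus strand, Mcm6 at chr1:128359706-128359825 on the minus strand and Rrm1 at chr7:102441595-102441694 on the plus strand. Cdk1 is at chr10:69352913-69353097, Cdc20 at chr4:118437344-118437403 and Top2a at chr11:99024190-99024384, these on the minus strand.
Mcm5: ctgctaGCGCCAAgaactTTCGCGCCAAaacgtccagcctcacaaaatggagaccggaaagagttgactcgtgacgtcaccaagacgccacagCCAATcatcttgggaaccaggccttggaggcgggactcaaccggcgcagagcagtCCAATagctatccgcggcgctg
Mcm6: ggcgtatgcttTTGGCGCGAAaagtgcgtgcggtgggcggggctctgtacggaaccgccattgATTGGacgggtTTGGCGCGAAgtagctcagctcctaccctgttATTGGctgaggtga
Rrm1: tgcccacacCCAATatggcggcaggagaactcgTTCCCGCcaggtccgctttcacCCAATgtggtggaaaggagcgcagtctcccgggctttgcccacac
Cdk1: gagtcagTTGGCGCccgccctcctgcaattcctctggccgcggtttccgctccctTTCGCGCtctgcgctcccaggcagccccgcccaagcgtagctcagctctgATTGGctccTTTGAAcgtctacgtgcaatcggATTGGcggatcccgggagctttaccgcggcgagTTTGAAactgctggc
Cdc20: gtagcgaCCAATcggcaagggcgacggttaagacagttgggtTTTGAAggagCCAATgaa
Top2a: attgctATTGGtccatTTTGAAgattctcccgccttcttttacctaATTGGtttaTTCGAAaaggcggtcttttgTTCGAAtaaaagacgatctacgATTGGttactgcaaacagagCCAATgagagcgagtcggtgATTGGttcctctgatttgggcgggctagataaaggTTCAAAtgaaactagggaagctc
The Mcm6 stretch holds 2 pairs of overlapping E2F words and Mcm5 holds 3 E2F words and 2 CCAAT, with no CHR word in either, and Rrm1 holds an E2F word between 2 CCAAT words. Cdc20 holds a CHR word 18 bases before the start between 2 CCAAT words and no E2F word, Top2a holds 4 CHR and 5 CCAAT words, and Cdk1 holds words of every kind.

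**Figure D2:**
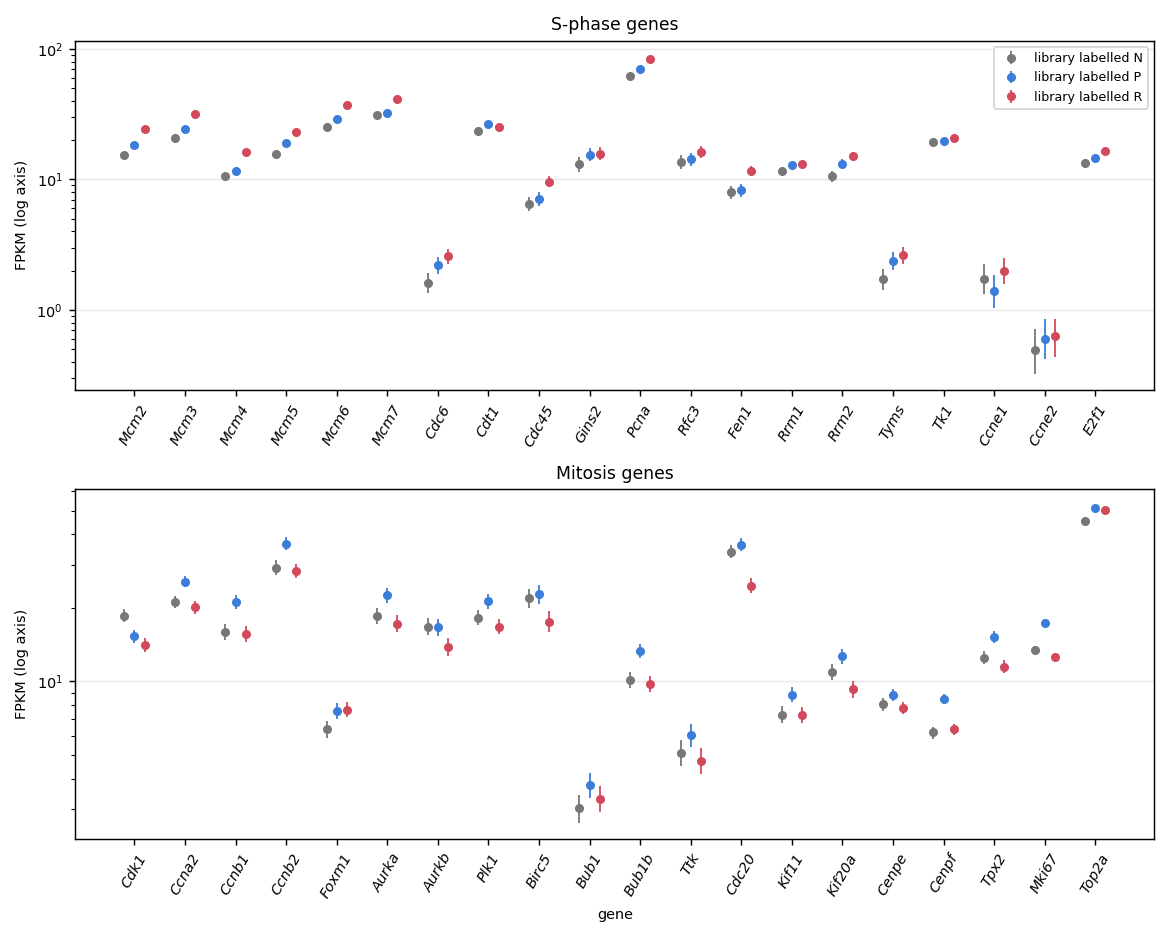
FPKM on a log axis (vertical) of each S-phase gene (upper panel) and mitosis gene (lower panel), as 1 point per library labelled N (grey), P (blue) or R (red), with exact 95% Poisson intervals for counting error. In the upper panel R is the highest point for 18 of the 19 genes above the minimum, and in the lower panel R is the lowest point for 16 of 20.

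The MCM genes, which encode the 6 subunits of the ring that unwinds DNA, were alike in their ratios, whose log2 median was 0.58 for R versus N and 0.37 for R versus P. Mcm2, on chromosome 6 from 88883474 to 88898780, was at 15.3, 18.2 and 24.3 FPKM, a ratio of 1.59 for R versus N (95% interval 1.46 to 1.72). Mcm3 was at 20.9, 24.4 and 31.8 FPKM and Mcm4 at 10.6, 11.6 and 16.1 FPKM, with R versus N ratios of 1.52 (1.41 to 1.64) and 1.52 (1.38 to 1.68). R was thus the highest and N the lowest library for these subunits. Mcm5, the first promoter printed above, was at 15.6, 19.1 and 23.0 FPKM, and Mcm6 at 25.0, 28.8 and 36.8 FPKM. Mcm7 had the smallest ratio of the subunits for R versus N, 1.31 (1.22 to 1.40), but not for R versus P, where it was 1.26 beside 1.21 for Mcm5. Its level was 31.4, 32.5 and 41.0 FPKM with its assembled transcripts. All 6 intervals lay above 1 for R versus N and for R versus P, and 4 of 6 for P versus N.

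Genes that load and switch on the helicase were less even. Cdc6, which recruits MCM to origins, was at 1.61, 2.21 and 2.58 FPKM, with a ratio of 1.60 (1.28 to 2.00) for R versus N and an interval of 0.955 to 1.43 for R versus P. Cdc45, a helicase cofactor, was at 6.48, 7.14 and 9.61 FPKM, 1.49-fold higher in R than in N (1.27 to 1.75). Gins2, of the GINS cofactor, was at 13.1, 15.5 and 15.8 FPKM, close to equal in P and R. Cdt1, the loader that is degraded once S phase begins, stood apart from the group at 23.6, 26.5 and 25.0 FPKM, and its interval for R versus N, 0.970 to 1.16, included 1.

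At the fork, Pcna, the sliding clamp, was the most abundant S-phase gene per length, at 61.9, 69.7 and 83.5 FPKM and 1.35-fold higher in R than in N (1.26 to 1.45). Fen1, which trims Okazaki fragments, was at 7.96, 8.27 and 11.7 FPKM, nearly equal in N and P and 1.41-fold higher in R than in P (1.22 to 1.63). Rfc3, of the clamp loader, was at 13.6, 14.3 and 16.3 FPKM, with an R versus P interval of 0.981 to 1.33. The genes of deoxynucleotide supply differed from each other. Rrm2, the regulated subunit of ribonucleotide reductase, was at 10.5, 13.1 and 15.1 FPKM, 1.43-fold higher in R than in N (1.26 to 1.62). Rrm1, the large subunit, was at 11.6, 12.8 and 13.1 FPKM, a ratio of 1.13 (1.03 to 1.24). Tyms, thymidylate synthase, was low at 1.72, 2.37 and 2.62 FPKM, with a ratio of 1.53 (1.20 to 1.93). Tk1, thymidine kinase, was at 19.5, 19.6 and 20.6 FPKM, and both of its ratios with R had intervals that included 1. Tk1 over RefSeq transcripts only was at 9.29, 9.61 and 13.6 FPKM, a log2 ratio of 0.55 for R versus N, so its value turned on 3 assembled transcripts. Of the G1/S regulators, E2f1, the activator named above, was at 13.3, 14.5 and 16.4 FPKM with a ratio of 1.24 (1.11 to 1.37). Ccne1, cyclin E1, was at 1.73, 1.41 and 2.00 FPKM on 61, 49 and 75 fragments, too few to show a difference at this depth.

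**Figure D3:**
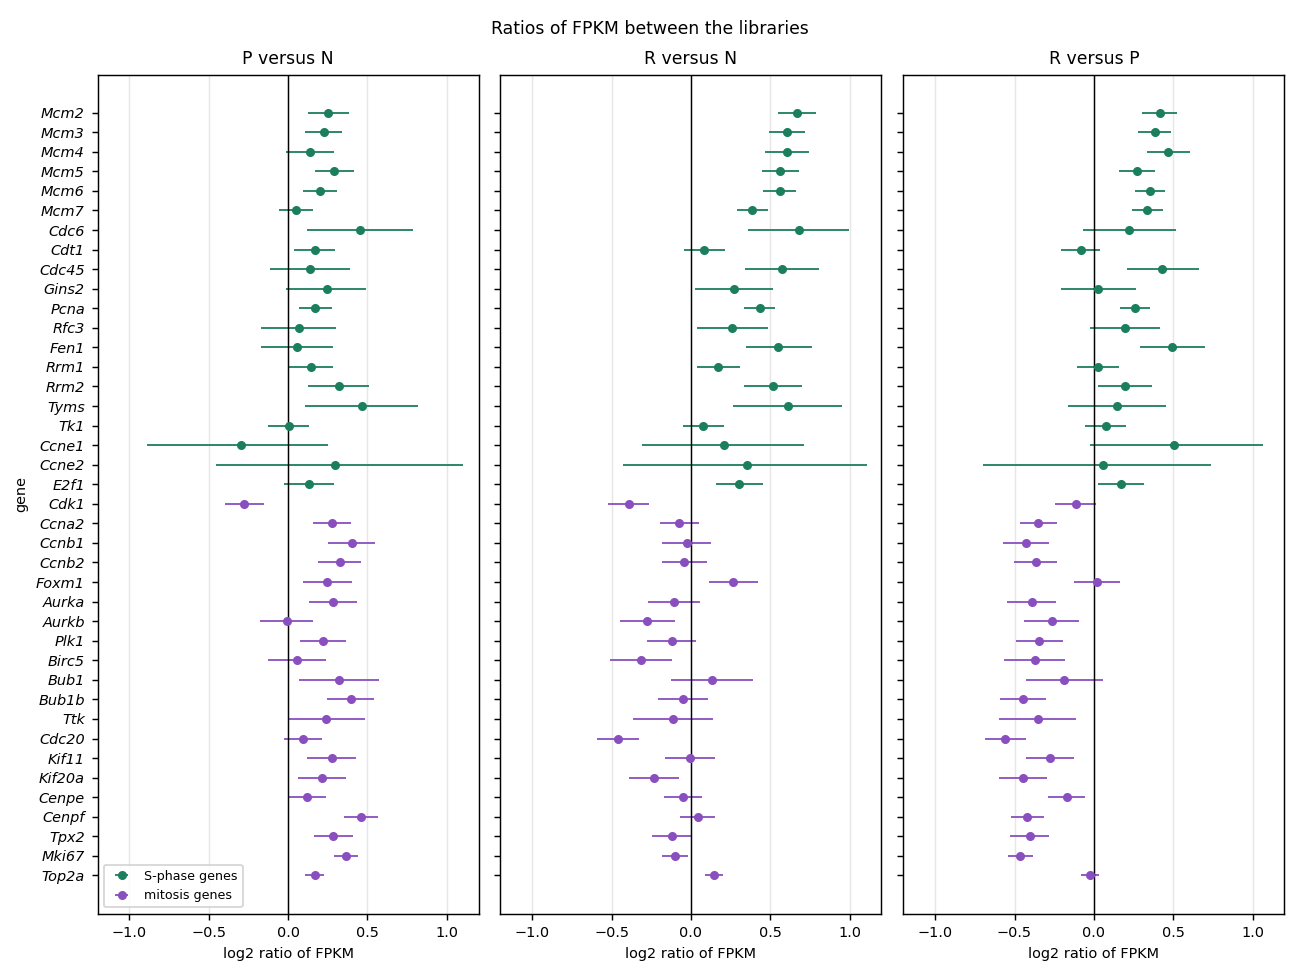
Log2 ratio of FPKM (horizontal axis) of all 40 genes (vertical axis) for P versus N, R versus N and R versus P, with exact 95% Clopper-Pearson intervals for counting error as bars, S-phase genes in green and mitosis genes in purple. For R versus P, no S-phase interval lies wholly below 0 and 16 of 20 mitosis intervals do, and the wide bars of Ccne1 and Ccne2 reflect few fragments.

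Among the mitotic cyclins and their kinase, P was the highest library for each cyclin. Ccnb1, cyclin B1, was at 16.0, 21.1 and 15.7 FPKM, 0.743-fold in R against P (0.672 to 0.822) and level between R and N. Ccnb2 was at 29.2, 36.6 and 28.4 FPKM, and Ccna2, cyclin A2, at 21.2, 25.6 and 20.1 FPKM, the same order of libraries. Cdk1, the kinase of these cyclins, went the other way for P versus N, at 18.6, 15.3 and 14.2 FPKM. Its RefSeq transcript was at 15.6, 8.87 and 10.5 FPKM and a longer assembled transcript at 2.99, 6.47 and 3.64 FPKM, while the fragments of both together numbered 1076, 1056 and 940. The lower FPKM of Cdk1 in P therefore went with a larger share of fragments on the longer transcript and nearly the same number of fragments.

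Foxm1, the transcription factor of the G2/M wave, had the highest R versus N ratio of the mitosis genes, at 6.38, 7.57 and 7.68 FPKM with a ratio of 1.20 for R versus N (1.08 to 1.34). Of the kinases that build the spindle, Aurka was at 18.5, 22.6 and 17.2 FPKM and Plk1 at 18.3, 21.3 and 16.8 FPKM. Both were highest in P and had R versus P intervals below 1, of 0.686 to 0.848 and 0.712 to 0.872. Both members of the passenger complex, which corrects attachments at the centromere, were near equal in N and P and lower in R. Aurkb, its kinase, was at 16.8, 16.7 and 13.9 FPKM, and Birc5, survivin, at 21.9, 22.8 and 17.6 FPKM, with R versus N ratios of 0.827 (0.733 to 0.932) and 0.804 (0.703 to 0.919). Incenp, another subunit and no member of the 40, did not share this at 17.0, 19.0 and 18.0 FPKM. Cdca8, a further subunit outside the 40, was lowest in R at 16.32, 17.85 and 13.21 FPKM. Both were named after their values were seen.

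Cdc20, the activator of the anaphase-promoting complex, had the lowest R ratios of all members. It was at 34.0, 36.3 and 24.7 FPKM on chromosome 4 from 118432901 to 118437343, 0.726-fold in R against N (0.663 to 0.796) and 0.680-fold against P (0.622 to 0.744). The checkpoint kinase gene Bub1b was at 10.2, 13.4 and 9.81 FPKM, and Ttk, which recruits the checkpoint to kinetochores, at 5.10, 6.02 and 4.71 FPKM. These stood level between N and R and were highest in P. Bub1 was at 3.02, 3.77 and 3.31 FPKM, and its R versus P interval of 0.742 to 1.04 included 1.

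Spindle motors and kinetochore genes were highest in P, and lowest in R except for Cenpf. Kif11, the motor that separates the poles, was at 7.30, 8.83 and 7.28 FPKM, and Kif20a, a motor of the central spindle, at 10.9, 12.7 and 9.29 FPKM. Cenpf was at 6.18, 8.50 and 6.36 FPKM, with a P versus N ratio of 1.38 (1.28 to 1.48). The kinetochore motor gene Cenpe was at 8.05, 8.76 and 7.78 FPKM, and Tpx2, which activates Aurora A on the spindle, at 12.5, 15.2 and 11.5 FPKM. R versus P intervals lay below 1 for all 5 of these genes. Mki67, the proliferation marker Ki-67 that coats mitotic chromosomes, was at 13.5, 17.3 and 12.6 FPKM, 0.725-fold in R against P (0.688 to 0.765). Top2a, topoisomerase II alpha, which untangles sister chromatids and is also made in S phase, was at 45.6, 51.2 and 50.4 FPKM, higher in R than in N by 1.11-fold (1.06 to 1.15) and level between R and P. The markers Mki67 and Top2a, often read together as a measure of proliferation, thus stood on different sides of 1 for R versus N.

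Assembled transcripts added to the values of 8 members, and their weight changed some ratios. Over RefSeq transcripts alone, as the gene names in the files are given, Tpx2 was at 8.89, 13.9 and 10.4 FPKM, a log2 ratio of 0.22 for R versus N in place of -0.12. Cdk1 over its RefSeq transcript gave log2 ratios of -0.81 for P versus N, -0.56 for R versus N and 0.24 for R versus P, in place of -0.28, -0.39 and -0.12. Both genes therefore have a direction in 1 comparison that turns on transcripts assembled from these reads. Top2a was at 18.5, 21.6 and 23.1 FPKM by RefSeq transcripts, with a log2 ratio of 0.32 for R versus N and 0.10 for R versus P, the latter in place of -0.022. Mki67, at 12.7, 17.3 and 10.4 FPKM, and Birc5, at 20.9, 21.6 and 16.2 FPKM, kept R as the lowest library. Mcm7 was at 27.5, 28.6 and 38.1 FPKM and Foxm1 at 5.60, 7.13 and 7.11 FPKM, and these 2 genes share a locus with another gene in the assembly, so fragments could be divided between them.

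Wider lists of cell cycle genes, with no member of the 40 in them, gave the same contrast in part. These lists too were chosen with earlier results of these data known. Their counts stand beside the shares over all genes given above, for R versus N 34.2% with an interval above 1 and 19.7% below, and for R versus P 30.7% and 24.7%. Of 23 polymerase and fork genes 17 had an R versus N interval above 1 and none below, with a log2 median of 0.37, and for R versus P 12 lay above and none below, with a median of 0.21. Pole, the catalytic subunit of polymerase epsilon, was at 2.77, 3.66 and 4.69 FPKM, and Pole2 at 1.90, 2.87 and 3.38 FPKM, while Pold2, the most abundant of the list, was level between N and R and lower in P, at 62.5, 57.0 and 62.7 FPKM. Of 18 origin genes 8 lay above and 2 below for R versus N, with a median of 0.27, and 6 above and 1 below for R versus P, with a median of 0.16, counts not far from the shares over all genes. Orc1, of the origin recognition complex, was at 0.832, 1.12 and 1.79 FPKM, and Mcm10, a helicase activator, at 3.09, 2.95 and 5.11 FPKM, so R was the highest library for both.

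Of 12 further genes of nucleotide supply 10 lay above and 1 below for R versus N, with a median of 0.38, and 9 above and 1 below for R versus P, with a median of 0.28. Shmt1, which transfers a carbon unit from serine to folate, was at 2.69, 2.82 and 4.69 FPKM. Samhd1 gave the largest ratio at 14.3, 13.1 and 100.6 FPKM, 7.06-fold higher in R than in N (6.61 to 7.54), and it hydrolyses deoxynucleotides rather than making them. Of 26 other G1/S genes 14 lay above and 1 below for R versus N, with a median of 0.19, and 13 above and 2 below for R versus P, with a median of 0.15. Ccnd2, cyclin D2, was at 5.45, 5.67 and 12.6 FPKM and Ccnd1, cyclin D1, at 199.7, 206.3 and 330.3 FPKM, and Rbl1, which encodes the repressor p107, was at 3.75, 4.11 and 8.37 FPKM. These were named for the largest ratios in the list, and Myc, at 52.7, 32.7 and 40.1 FPKM, was not highest in R.

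CDK inhibitors and arrest genes lay on the other side. Of 18 measured 14 had an R versus N interval below 1, against 19.7% of all genes, and 2 above, with a log2 median of -0.36. For R versus P 11 lay below, against 24.7%, and 3 above, with a median of -0.30. Ccng2, cyclin G2, an arrest gene, was at 36.4, 41.5 and 16.7 FPKM, and Gadd45a, of the DNA damage response, at 144.5, 115.5 and 75.7 FPKM. Plk2, a stress-responsive kinase, was at 18.2, 11.5 and 9.22 FPKM. R was the lowest library for each of these, which were named for the largest differences between R and N in the list. The 2 genes with an R versus N interval above 1 were highest in R. Ccng1 was at 7.378, 6.628 and 9.707 FPKM and Pkmyt1 at 7.495, 8.631 and 11.53 FPKM.

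The mitotic lists differed from each other. For 36 further spindle, condensin and cytokinesis genes the median was 0.28 for P versus N, with 29 intervals above 1, against 22.2% of all genes, and none below. It was -0.05 for R versus N, with 7 above and 6 below, against 34.2% and 19.7%. For R versus P it was -0.28, with 1 above and 23 below, against 30.7% and 24.7%. These medians were close to those of the 20 mitosis genes. Within that list Pbk, a mitotic kinase, was at 6.34, 8.12 and 8.70 FPKM, with R the highest. For 28 other kinetochore and checkpoint genes the medians were 0.24, 0.11 and -0.08, with 10 intervals above 1 and 2 below for R versus N, and 9 below and 2 above for R versus P, of which the 10 and the 9 are near the shares over all genes. Sgol1, shugoshin, which protects cohesion at the centromere, was at 1.76, 2.81 and 2.93 FPKM. For 21 genes of the anaphase-promoting complex and mitotic exit the medians were 0.10, -0.080 and -0.077, with 6 intervals above 1 and 6 below for R versus N. Cdc26, a subunit of the complex, was highest in R at 13.7, 16.8 and 21.6 FPKM, and Ube2c, the ubiquitin-conjugating enzyme that works with it, lowest in R at 53.1, 58.4 and 40.2 FPKM. The kinetochore list therefore sat nearer to the median of all genes than the spindle list did in both ratios with R.

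**Figure D4:**
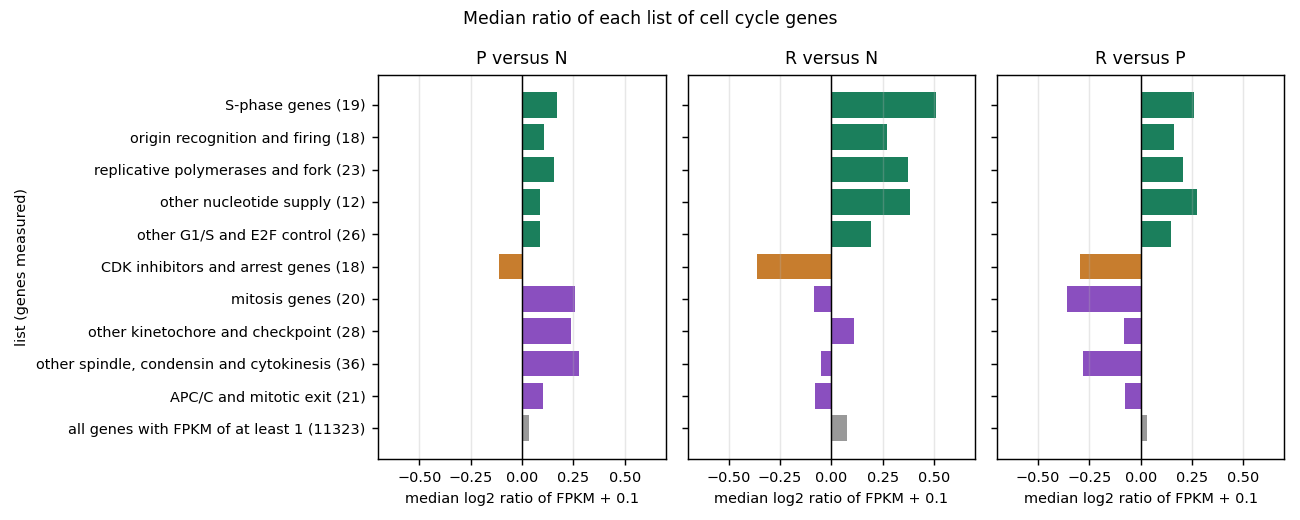
Median log2 ratio of FPKM + 0.1 (horizontal axis) of each list of cell cycle genes (vertical axis, with the number of genes measured) for P versus N, R versus N and R versus P, as bars from 0, with replication lists in green, arrest genes in orange, mitotic lists in purple and all genes in grey. The replication lists lie right of all genes in both panels with R, and the arrest genes lie left of 0 in all 3 panels.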

How the data were processed

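RNA of CSCsp was sequenced in 3 libraries, 1 per condition, grouped by their labels. The authors aligned reads with HISAT2 (version 2.2.0) and quantified transcripts with StringTie, which the submitters' processing notes give as version 2.1.3 and the headers as 2.1.5. The deposited files hold coverage, FPKM and TPM for each transcript in an attribute field. The notes name mm9, while 99.3% of 23185 symbols, and all 40 members, overlap their gene on GRCm38.p6. The value of a gene is the sum of FPKM over its RefSeq transcripts and over any transcript StringTie assembled within it, which adds to 8 members. Of 24402 symbols 11323 reached 1 FPKM in a library. Fragments were coverage times length over 300 bases. Log2 ratios used a pseudocount of 0.1 FPKM, and intervals on FPKM (exact Poisson) and on ratios (exact Clopper-Pearson) were at 95% and cover counting error alone. No test was run, as each condition has 1 library. Members and lists were chosen with earlier results of these data known. The rule for named genes took every member and, from each further list, up to 3 genes with the largest ratios for R versus N and the most abundant, of which the text gives examples. Some genes the rule takes are not reported here. Of 32 names in the kinetochore list 29 were found, as 3 are second names of the same genes. Alternatives were TPM, pseudocounts of 1 and 0.01, no filter or a filter of 5 FPKM, rescaling, RefSeq transcripts only, the transcript with the highest mean, genes that share no locus, 99% intervals, a 1.5-fold threshold and exchanged labels N and P. Scripts used Python 3.11.15, NumPy 2.4.6, pandas 2.3.3 and SciPy 1.17.1.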

Additional observations from a re-analysis of the deposited data

How the results depend on the processing

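With 1 library per condition the spread between experiments is unknown, and depth limits Ccne1, Ccne2, Cdc6 and Tyms most. No paired analysis was possible because each condition has 1 library. Over 9 alternatives that keep the labels, the median log2 ratio stayed between 0.43 and 0.55 for S-phase genes and between -0.13 and -0.04 for mitosis genes for R versus N, and between 0.24 and 0.28 and between -0.38 and -0.35 for R versus P. Exchanging the labels N and P turned the P versus N medians to -0.17 and -0.26, with 1 interval above 1 and 26 below. It also made the medians 0.26 and -0.36 for R versus N, with 11 intervals above 1 and 16 below, and 0.51 and -0.086 for R versus P, with 18 above and 6 below, because the values trade places by construction. With the transcript of the highest mean, 1 member (Tpx2) was 2-fold higher for P versus N, the log2 ratio of Bub1 for P versus N became -0.025 and that of Kif20a for R versus N 0.18, since these genes spread over several transcripts. A 1.5-fold threshold gave 4 higher members for R versus N. Of 222 values of medians and counts under alternatives 208 stayed within the limit set for a move, of which 1 changed sign, the difference of medians for P versus N, at -0.089 with exchanged labels. Of 720 values of single genes 688 stayed within it, of which 10 changed sign, and 9 of the 30 that moved did too.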

Other observations

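Transcripts of the same gene did not move alike in some members. Kif20a had a RefSeq transcript, NM_001166406, at 2.76, 1.07 and 0.24 FPKM in N, P and R, on 176, 69 and 16 fragments, while its main transcript, NM_009004, was at 7.97, 11.6 and 9.05 FPKM. The gene total was therefore lower in R than in N while the main transcript was higher. Bub1 had NM_001113179 at 0.96, 1.75 and 1.89 FPKM and NM_009772 at 2.06, 2.02 and 1.42 FPKM, so the transcript with the higher level in N was the lower of the pair in R. StringTie divides fragments between overlapping transcripts by a model, and its error is not in the deposited values.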
